A study of Mus musculus with 24 samples.

Results

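The satellite repeats of the mouse genome were followed here through 24 total RNA libraries of naive mouse embryonic stem cells (ESCs). Every repeat locus in the expression tables carried a name made of its family, class, superfamily and a HOMER annotation number, and the 36869 loci whose class read Satellite were taken from the 5147736 repeat loci listed in each of the 6 tables. They belonged to 9 families. IMPB_01 held 26753 loci, or 72.6% of them, MurSAT1 5741, ZP3AR 2575, MMSAT4 1600, GSAT_MM 87, SYNREP_MM 75, SUBTEL_sa 31, CENSAT_MC 4 and (CATTC)n 3.

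Satellites are short units repeated head to tail in long arrays. GSAT_MM is the mouse major, or gamma, satellite, the main DNA of the pericentromeric heterochromatin that gathers into chromocenters in mouse nuclei, SUBTEL_sa lies near chromosome ends and CENSAT_MC at centromeres. Such arrays are packed in chromatin rich in trimethylated H3K9, HP1 proteins and DNA methylation, they give rise to RNA at low levels, and most of the pericentromeric arrays are missing from the assembled genome, so that a satellite locus in an annotation is usually a small stretch outside the array proper.

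The study asked how naive ESCs enter quiescence and what sets them free from developmental restriction, and compared 12 groups of 2 libraries each. Cells in the top and bottom 5% of the mitochondrial membrane potential dye TMRM were sorted as High and Low, the Low cells being spontaneously quiescent. Mat2a, which makes the methyl donor S-adenosylmethionine (SAM), was knocked down with a pool of siRNAs (siMat2a) against a non-targeting pool (siCtr), fatty acid oxidation was blocked with etomoxir (ETO) against water (H2O), and MYC with an inhibitor (MYCi) against DMSO. EedKO cells lacked Eed, a core subunit of the H3K27 methyltransferase PRC2, and Het cells were heterozygous. Both were male naive lines derived from embryos of the 129/S1 background, and how many lines stand behind these libraries is not given in the sources used here. Low-potential cells were also cultured with 25 or 50 µM SAM (LowSAM25uM, LowSAM50uM). The methods call the libraries of a group independent biological replicates. The labels give no age and do not say which culture, sort or line a library came from, so p-values measure the spread between these libraries. With 2 libraries per group, groups can easily lie apart without a difference. The share of all features lying apart was not counted, so statements on overlap below describe the values only.

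Expression was given as FPKM, fragments normalized for the length of the locus and the depth of the library, so levels are per length and can be set beside each other across families. A fragment with several possible places or features had been divided among them, without regard to strand. Loci of a family therefore share fragments, and a locus inside a transcript takes a part of that transcript's fragments. Each table was normalized on its own, and every change tested below was taken within its table. Ranges and levels given over several tables set separately normalized values side by side and are descriptive. Fragments assigned to genes, estimated from the step of the low FPKM values, ran from 27.2 M to 64.2 M per library, a depth at which 3718 to 9215 satellite loci per library were above 0. The median gene was lower in siMat2a, ETO, MYCi and LowSAM50uM than in the group each was compared with, at log2 changes of -0.63, -0.66, -0.65 and -0.40, whereas the median repeat family moved by at most 0.13. Changes are therefore given on the deposited scale and, where the direction or the call turns, also relative to the median gene. The 10 ESC markers summed to between 420 and 1665 FPKM in all libraries, against at most 9.59 FPKM for 10 fibroblast (feeder) markers. The fibroblast sum was 8.09 and 9.40 FPKM in Het and 8.27 and 9.59 FPKM in EedKO, and at most 3.16 FPKM in the other tables. The methods state that the Het and EedKO lines were derived and expanded on feeder cells. In bulk RNA, fewer cells of a type and less RNA per cell cannot be told apart.

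Satellites made up a small and narrow share of repeat RNA. Their summed FPKM was between 0.436% and 0.659% of that of all repeat loci. The share was 0.603% and 0.577% in High against 0.645% and 0.626% in Low, and 0.565% and 0.659% in H2O against 0.443% and 0.438% in ETO. It was 0.560% and 0.550% in DMSO against 0.436% and 0.466% in MYCi, 0.641% and 0.656% in siCtr against 0.591% and 0.481% in siMat2a, and 0.547% and 0.554% in Het against 0.495% and 0.490% in EedKO. The Low libraries thus lay above the High ones, while both treated or null libraries lay below both controls in these other 4 tables. With 25 µM SAM the share was 0.620% and 0.575%, against 0.576% and 0.483% with 50 µM, with overlap. The families in this sum did not move alike. MMSAT4, with 1600 loci, went from 3.90 and 5.33 FPKM per locus in H2O to 2.04 and 2.08 FPKM in ETO. IMPB_01, with 26753 loci, went from 0.104 and 0.102 to 0.116 and 0.122 FPKM. The part of each family in the share was not tested.

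The families differed widely in level. MMSAT4 had the highest mean level per locus, 1.97 to 5.33 FPKM, followed by ZP3AR at 0.235 to 0.669 and SUBTEL_sa at 0.368 to 0.878, 2 ranges that overlapped. GSAT_MM had the widest range of the 6 tested families as a ratio of highest to lowest, 0.00980 to 1.06 FPKM, and its lowest values were the 4 sorted libraries. IMPB_01 lay at 0.0268 to 0.131 and SYNREP_MM at 0.0129 to 0.0977 FPKM. MurSAT1 reached at most 0.00697 FPKM despite its 5741 loci, and stayed under the minimum mean of 0.01 FPKM for a test. CENSAT_MC, at 0 to 0.112 FPKM, and (CATTC)n, at 0 to 0.165 FPKM, had fewer than the 10 loci required, which left 6 families for the tests. How evenly a family was spread over its loci also differed. The highest locus carried 1.02% to 3.69% of the summed FPKM of IMPB_01 and 1.47% to 2.76% of MMSAT4, but 13.1% to 25.8% of ZP3AR, 19.5% to 72.1% of GSAT_MM, 33.6% to 76.8% of SYNREP_MM and 45.7% to 79.1% of SUBTEL_sa.

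**Figure D1:**
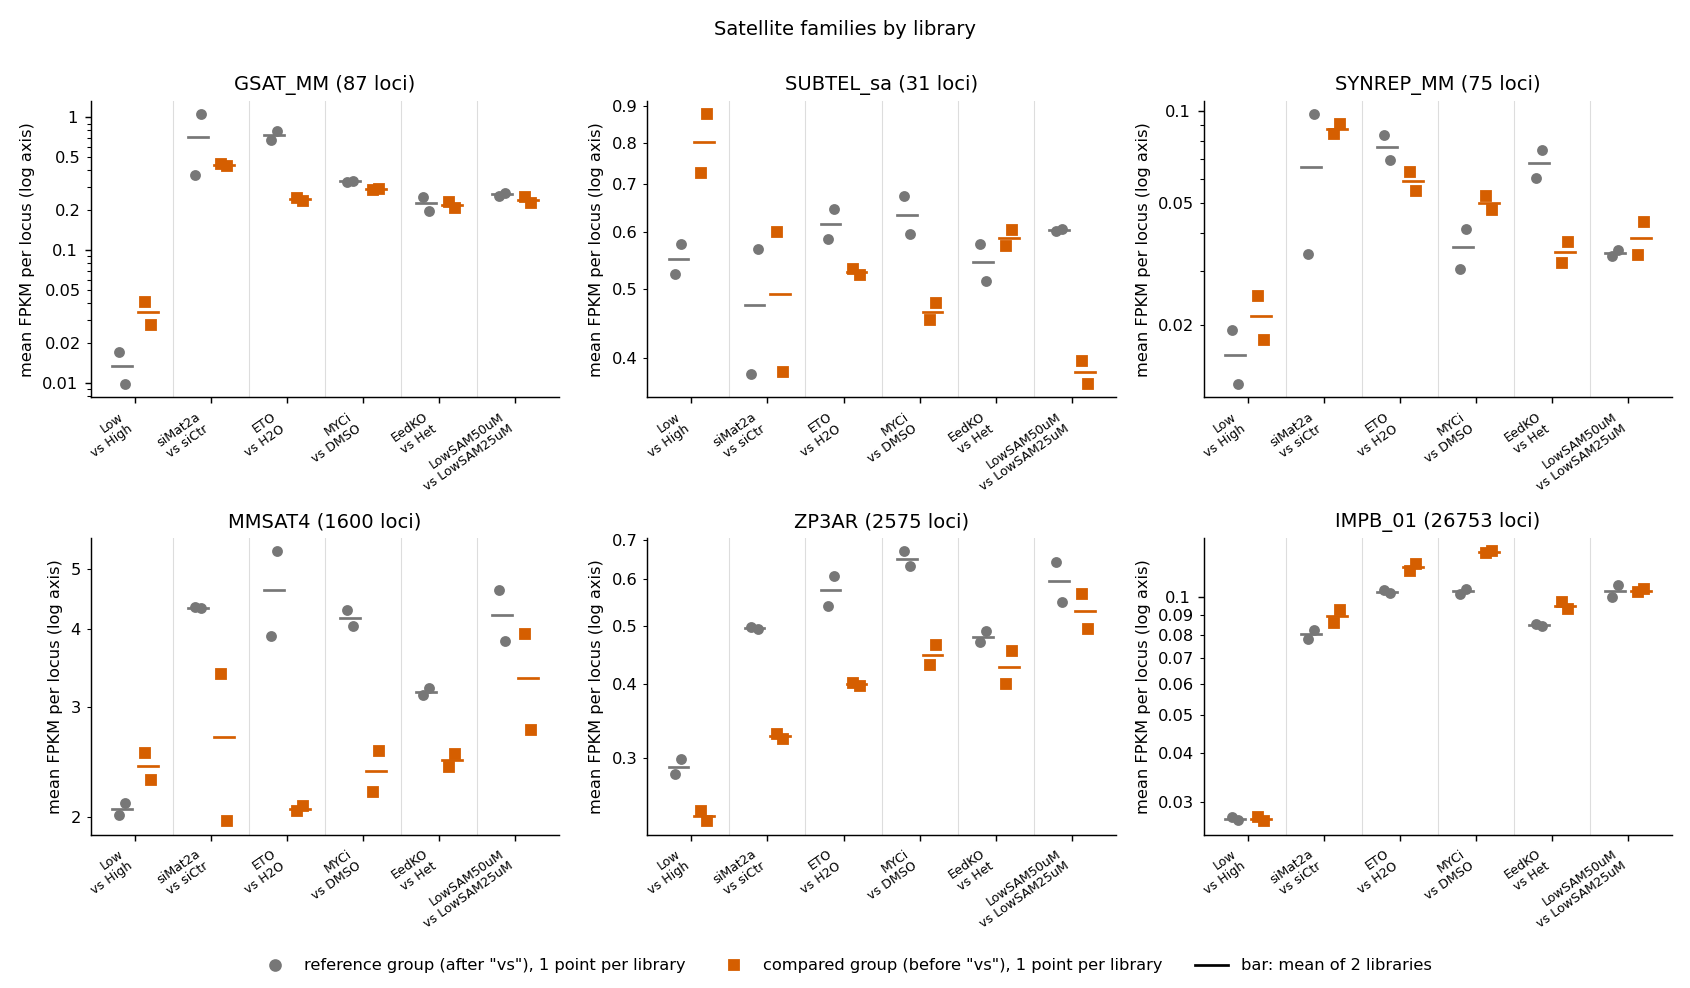
Mean FPKM per locus (log axis) of the 6 tested satellite families in each of the 24 libraries, grouped by table with the control group of each pair first. Each point is 1 library. MMSAT4 stayed between 1.97 and 5.33 FPKM, whereas GSAT_MM ranged from 0.00980 FPKM in a High library to 1.06 FPKM in siCtr 2. Levels in different tables were normalized separately.

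Etomoxir gave the largest change of a satellite family on the deposited scale. GSAT_MM stood at 0.678 and 0.790 FPKM per locus in H2O and at 0.246 and 0.236 FPKM in ETO, and fell 2.95-fold (log2 change -1.56, SE 0.10, limma adjusted p = 0.0224). Other controls, in tables normalized separately, stood at 0.327 and 0.332 FPKM (DMSO) and at 0.366 and 1.06 FPKM (siCtr). The part of the H2O level in this fall was not tested. MMSAT4 fell 2.21-fold, from 3.90 and 5.33 to 2.04 and 2.08 FPKM (log2 change -1.14, SE 0.22, adjusted p = 0.0355). ZP3AR fell from 0.542 and 0.608 to 0.402 and 0.397 FPKM (log2 change -0.51, SE 0.09, adjusted p = 0.0345), but turned to 0.27 relative to the median gene (adjusted p = 0.224). The ETO libraries lay below both H2O libraries in all 3 families. Of the 6 families 3 were called lower and none higher by limma, with 0 higher at an unadjusted p under 0.05 too, where 9.94% of the 1448 repeat families tested were called lower and 7.32% higher. GSAT_MM and MMSAT4 were lower relative to the median gene as well (log2 change -0.79, adjusted p = 0.000875, and -0.35, adjusted p = 2.16e-05), in a scale where 3.04% of all families were called lower and 80.1% higher. Relative to the median repeat family the 3 changes were -1.65, -1.23 and -0.60 and missed the threshold, with adjusted p = 0.0586, 0.0624 and 0.0586. There 0 of all 1448 families were called higher and 0 lower, so the loss was not particular to satellites. SUBTEL_sa, at 0.586 and 0.647 FPKM in H2O and 0.532 and 0.523 in ETO, was not called on the deposited scale (log2 change -0.22, adjusted p = 0.140) and was 0.56 higher relative to the median gene (adjusted p = 0.00626). On that scale IMPB_01 was called higher too (0.92, adjusted p = 0.00213), so that 2 families were called higher and 2 lower. All 3 deposited-scale calls were lost when either ETO library was left out, and the summed ESC markers moved with them, from 1173 and 1665 FPKM in H2O to 452 and 420 FPKM in ETO. The 10 trophoblast markers summed to 12.4 and 16.2 FPKM in H2O and 22.4 and 23.9 FPKM in ETO. Tpbpa was at 0 in all 4 libraries. Of the 7 tested, 5 were called higher and 1 lower, where 13.9% and 51.3% of all genes were. The part of these markers in the satellite values was not tested.

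The MYC inhibitor moved 5 of the 6 families. MMSAT4 fell from 4.29 and 4.04 FPKM in DMSO to 2.19 and 2.55 FPKM in MYCi (log2 change -0.81, SE 0.11, limma adjusted p = 0.0202). ZP3AR fell from 0.669 and 0.632 to 0.430 and 0.465 FPKM (log2 change -0.53, SE 0.06, adjusted p = 0.0188, but 0.23 relative to the median gene). SUBTEL_sa fell from 0.673 and 0.596 to 0.451 and 0.477 FPKM (log2 change -0.44, SE 0.08, adjusted p = 0.0279, but 0.31 relative to the median gene). On the deposited scale these 3 families thus fell, with no overlap between MYCi and DMSO. GSAT_MM, at 0.327 and 0.332 FPKM in DMSO and 0.286 and 0.291 FPKM in MYCi, fell by 0.19 (SE 0.03, adjusted p = 0.0210) on the deposited scale and was 0.56 higher relative to the median gene (adjusted p = 0.000538). IMPB_01 rose, from 0.102 and 0.105 to 0.129 and 0.131 FPKM (log2 change 0.30, SE 0.03, adjusted p = 0.0188). So 4 families were called lower, against 14% of all 1446 families, and 1 higher, against 31.5%. Scaled to the median gene, several directions changed. IMPB_01 was then 1.01 higher (adjusted p = 1.61e-08), GSAT_MM and SUBTEL_sa (adjusted p = 0.0388) were called higher, SYNREP_MM was called at 1.02 higher (adjusted p = 1.15e-05), and MMSAT4 and ZP3AR were not called, the former at -0.05, while 87.8% of all families were called higher and 2.77% lower. None of the 5 deposited-scale calls was kept when any of the 4 libraries was left out. The summed ESC markers were at 1349 and 1203 FPKM in DMSO and 500.3 and 589 FPKM in MYCi, and the trophoblast markers at 13.8 and 11.1 against 6.97 and 8.26 FPKM. Their part in the satellite values was not tested.

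Mat2a itself was at 48.5 and 45.1 FPKM in siCtr and 13.5 and 9.44 FPKM in siMat2a (log2 change -2.04, limma adjusted p = 3.62e-05), as the labels state. ZP3AR was the only satellite family called, at 0.499 and 0.496 FPKM in siCtr and 0.329 and 0.323 FPKM in siMat2a (log2 change -0.59, SE 0.06, adjusted p = 0.0439). Of all 1447 families 2.21% were called lower and 8.91% higher. Relative to the median repeat family, 0 of all families were called lower and 2 higher. The ZP3AR difference was 0.14 in the other direction relative to the median gene (adjusted p = 0.633) and -0.69 relative to the median repeat family (adjusted p = 0.0602), and its call was lost when siCtr 1, siCtr 2 or siMat2a 2 was left out. GSAT_MM was at 0.366 and 1.06 FPKM in siCtr and at 0.448 and 0.433 FPKM in siMat2a (log2 change -0.49, SE 0.55, adjusted p = 0.524). The siMat2a libraries fell between the 2 controls, and the log2 change was -1.24 without siCtr 1 and 0.26 without siCtr 2. MMSAT4, at 4.33 and 4.32 FPKM in siCtr and 3.39 and 1.97 FPKM in siMat2a, was lower in both knockdown libraries but not called (log2 change -0.74, SE 0.34, adjusted p = 0.179), and stood at 0.01 relative to the median gene. On that scale IMPB_01 (0.81, adjusted p = 0.0449), SUBTEL_sa (0.78, adjusted p = 0.0154) and SYNREP_MM (1.15, adjusted p = 0.0122) were called higher and none lower (at an unadjusted p under 0.05 none either), while 63.9% of all families were called higher and 1.17% lower. The summed ESC markers were at 1386 and 1307 FPKM in siCtr and 709 and 433 FPKM in siMat2a. Trophoblast markers were at 5.004 and 4.56 against 8.002 and 4.62 FPKM. Of the 7 tested, 4 were called higher and 1 lower, where 13.1% and 36.8% of all genes were. The part of these markers in the satellite values was not tested.

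In the spontaneously quiescent Low cells no satellite family was called by limma, while without adjustment 2 were higher and 1 lower at p under 0.05. Over all 1377 families, 0.363% were called higher and 0.218% lower. GSAT_MM was at 0.0171 and 0.00980 FPKM in High and 0.0407 and 0.0271 FPKM in Low (log2 change 0.90, SE 0.24, adjusted p = 0.234). These values lay near the 0.01 FPKM added before taking logs and came from 10 to 12 of the 87 loci per library, so few fragments decide them. Both Low libraries lay above both High libraries. Scaled to the summed ERCC spike-in RNA, which was listed only in this table, the GSAT_MM difference was 0.94 and the only satellite call (adjusted p = 0.0409), where 1.31% of all families were called higher and 0.944% lower. SUBTEL_sa was at 0.524 and 0.577 FPKM in High and 0.727 and 0.878 FPKM in Low (log2 change 0.53, SE 0.13, adjusted p = 0.216), again without overlap. MMSAT4, at 2.016 and 2.101 against 2.53 and 2.29 FPKM, was higher in both Low libraries as well (log2 change 0.23, adjusted p = 0.442). ZP3AR went the other way, with 0.282 and 0.298 FPKM in High and 0.244 and 0.235 FPKM in Low (log2 change -0.27, SE 0.08, adjusted p = 0.255). IMPB_01 did not differ beyond its spread, at 0.0274 and 0.0270 against 0.0275 and 0.0268 FPKM.

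Eed was at 11.4 and 11.6 FPKM in Het and 2.72 and 2.78 FPKM in EedKO (log2 change -2.03, limma adjusted p = 0.000995), as the genotypes state. No satellite family was called by limma on the deposited scale, 2 being lower and 1 higher at an unadjusted p under 0.05, where 2.55% of all 1450 families were called lower and 4.48% higher. SYNREP_MM came nearest, with 0.0607 and 0.0748 FPKM in Het and 0.0319 and 0.0375 FPKM in EedKO (log2 change -0.79, SE 0.13, adjusted p = 0.0580). Both null libraries lay below both heterozygous ones, and the difference was called relative to the median gene (-0.89, adjusted p = 0.0177) and relative to the median repeat family (-0.85, adjusted p = 0.0425), where 2.76% and 4.69% of all families were called lower. GSAT_MM did not differ beyond its spread, at 0.253 and 0.197 FPKM in Het and 0.229 and 0.208 FPKM in EedKO (log2 change -0.03, adjusted p = 0.901). MMSAT4 was at 3.13 and 3.22 FPKM in Het and 2.40 and 2.53 FPKM in EedKO (log2 change -0.36, adjusted p = 0.108). Trophoblast markers moved with the genotype in this table, their sum being 25.6 and 28.0 FPKM in Het and 96.0 and 136 FPKM in EedKO, with Tpbpa at 0 in all 4 libraries. Primitive endoderm markers were at 78.6 and 85.3 against 123 and 135 FPKM. Their part in the satellite values was not tested.

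Between 25 and 50 µM SAM no repeat family was called by limma, so that 0% of the 1446 families were called in either direction, and 1 of the 6 satellite families reached an unadjusted p under 0.05. That family was SUBTEL_sa, at 0.601 and 0.607 FPKM with 25 µM and 0.396 and 0.368 FPKM with 50 µM (log2 change -0.65, SE 0.07, adjusted p = 0.587 by limma). The 2 dose groups did not overlap for it. GSAT_MM was at 0.257 and 0.271 against 0.251 and 0.225 FPKM (log2 change -0.14), without overlap, and MMSAT4 at 4.61 and 3.82 against 3.93 and 2.75 FPKM, with overlap. No untreated Low library stood in that table, so SAM against no SAM could not be compared.

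**Figure D2:**
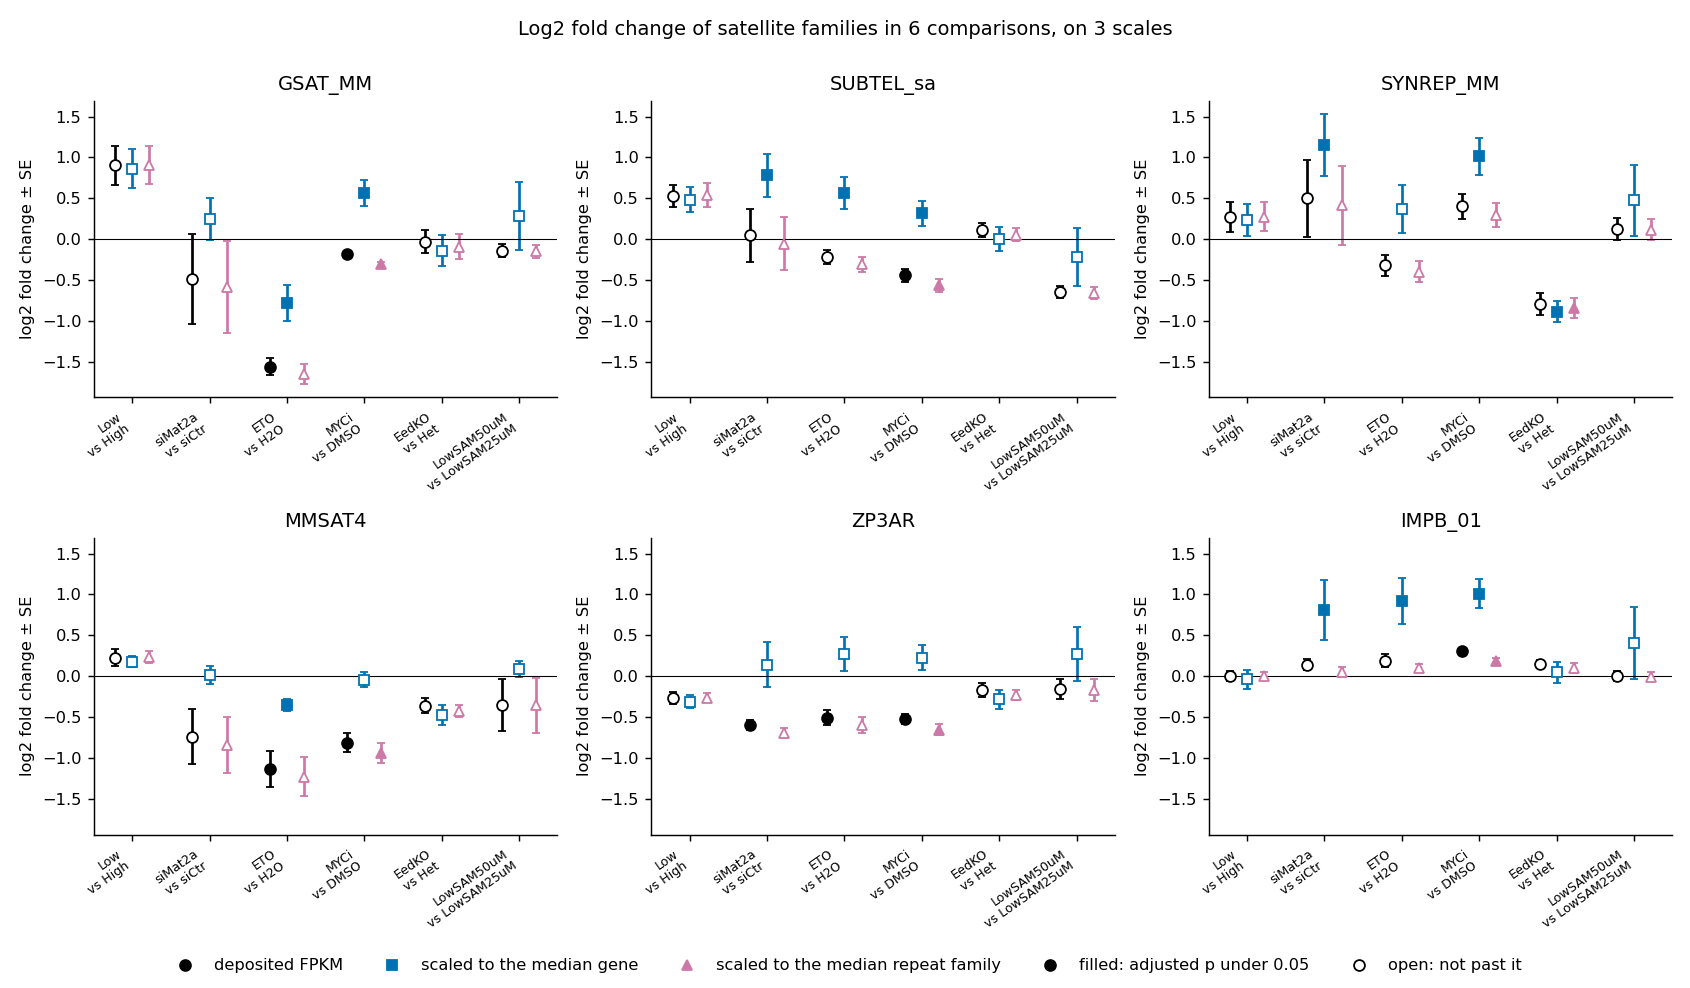
Log2 change with its standard error of the 6 tested satellite families in the 6 comparisons, on the deposited scale, relative to the median gene and relative to the median repeat family. Filled points had an adjusted p under 0.05 by limma. In ETO, GSAT_MM was lower on all 3 scales, called on the deposited (-1.56) and median-gene (-0.79) scales, while the ZP3AR changes in siMat2a, ETO and MYCi crossed 0 when scaled to the median gene.

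The ways into quiescence were then set against each other with 1 fit over all 24 libraries, testing whether 2 within-table changes differed. GSAT_MM differed most, its change in Low against High being 2.47 above that in ETO against H2O on the log2 scale (SE 0.46, limma adjusted p = 0.00265) and 1.65 above it relative to the median gene (adjusted p = 0.0158). Its sorted values lay near the 0.01 FPKM added before taking logs, and its H2O values lay above those of DMSO. MMSAT4 differed by 1.37 (adjusted p = 0.00700), or 0.53 relative to the median gene (adjusted p = 0.00645), and SUBTEL_sa by 0.75 (adjusted p = 0.0443), which became -0.08 on the median-gene scale. IMPB_01 differed by -0.19 (adjusted p = 0.0347), and by -0.10 relative to the median repeat family, where the call was lost (adjusted p = 0.194). Thus 3 of the 6 families had a higher change in Low than in ETO, where 14.2% of the 1375 families did, and 1 a lower change, where 16.9% did. Against MYCi, the change in Low was higher for MMSAT4 by 1.04 (adjusted p = 0.0281) and SUBTEL_sa by 0.97 (adjusted p = 0.0186), and lower for IMPB_01, at -0.31 (adjusted p = 0.00521). There 9.38% of all families were higher and 18.9% lower, and the MMSAT4 and SUBTEL_sa differences were not called relative to the median gene (0.22, adjusted p = 0.0941, and 0.17, adjusted p = 0.582).

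No satellite family was called as different between ETO and MYCi by limma, with 1 at an unadjusted p under 0.05 and 0.0727% of all families called in each direction. For GSAT_MM that difference was -1.38 (SE 0.46, adjusted p = 0.377). Between the Mat2a knockdown and the Eed deletion, the SYNREP_MM changes differed by 1.29 (adjusted p = 0.0396) and 2.04 relative to the median gene (adjusted p = 0.00866). ZP3AR differed by -0.42 (adjusted p = 0.0273), which turned to 0.43 relative to the median gene (adjusted p = 0.0814). Of all families 10% were called higher and 11.1% lower in that contrast. The part of the unlike culture of the Eed lines in these differences was not tested.

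Single loci carried most of the signal of the small families, so the highest of each, ranked by mean FPKM over all libraries after the values were seen, are described next. No satellite locus was called by limma in any of the 6 tables. Between 1434 loci, in the sorted table, and 3000 loci, in the etomoxir table, reached 0.5 FPKM in at least 2 libraries and were tested. At an unadjusted p under 0.05 there were 150 in Low, 685 in siMat2a, 1209 in ETO, 971 in MYCi, 757 in EedKO and 114 in LowSAM50uM. The lowest adjusted p was 0.102, 0.0936, 0.0621, 0.0749, 0.0791 and 0.912 in the same order. Over all repeat loci of the genome 0.0211% were called higher in Low and 0% in every other table and direction, so this count is not particular to satellites.

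The highest GSAT_MM locus and the other loci of the family took different courses. Locus 4678357, the highest by its mean over all libraries, was at 0 in all 4 sorted libraries. It was at 16.8 and 19.9 FPKM in H2O and 14.2 and 12.6 FPKM in ETO, at 21.6 and 22.1 FPKM in DMSO and 15.9 and 18.0 FPKM in MYCi, and at 22.2 and 23.3 FPKM in siCtr and 16.6 and 18.0 FPKM in siMat2a. On the deposited scale the treated libraries thus lay below the controls in these 3 tables, at 0.733, 0.774 and 0.761 times the control mean. The median gene fell in them too, at log2 changes of -0.66, -0.65 and -0.63 in the same order. Relative to the median gene, all 6 GSAT_MM loci tested in MYCi, this one among them, had a log2 change above 0. In the Eed table it was at 9.66 and 8.63 FPKM in Het and 5.08 and 4.74 FPKM in EedKO, or 0.537 times (adjusted p = 0.104, limma).

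The other 86 GSAT_MM loci behaved differently. Their summed FPKM was 42.2 and 48.9 in H2O and 7.19 and 7.92 in ETO, 6.03 times lower. It was 6.81 and 6.83 in DMSO and 9.05 and 7.33 in MYCi, and 12.3 and 8.49 in Het and 14.8 and 13.3 in EedKO, slightly higher in MYCi and in EedKO. In siCtr it was 9.63 and 68.6, so that the replicates differed 7.12-fold from each other, and in siMat2a 22.4 and 19.6. Outside the sorted table this sum thus covered an 11.2-fold range, from 6.13 to 68.6 FPKM, with the 2 H2O libraries and siCtr 2 at its top and the ETO, MYCi, DMSO, SAM and Het 2 libraries at its bottom, between 6.13 and 9.06 FPKM. In the sorted cells it was 1.49 and 0.853 in High and 3.54 and 2.36 in Low, 2.52 times higher, from 10 to 12 loci above 0 per library against 17 to 45 in the other tables. When the top locus of every family was left out, the change of GSAT_MM in ETO was -2.46 (limma adjusted p = 0.00884), a 5.51-fold lower mean, and 3.04% of all families were called lower.

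The second and the third of these loci followed the same course. Locus 875201 was at 16.2 and 18.2 FPKM in H2O and 0.923 and 1.16 FPKM in ETO, 16.5 times lower (adjusted p = 0.0621, limma). Locus 2549795 was at 13.9 and 16.9 FPKM in H2O and 0.708 and 0.837 FPKM in ETO, 19.95 times lower (adjusted p = 0.0621). Both were high also in siCtr 2, at 27.4 and 22.7 FPKM, and low in siCtr 1, at 2.63 and 2.07 FPKM. The siMat2a libraries, at 8.64 and 8.88 FPKM for the former and 5.29 and 5.01 FPKM for the latter, lay between the 2 controls. In the MYCi table the values of locus 875201 were close to each other, with 1.18 and 1.36 FPKM in DMSO and 1.03 and 0.960 FPKM in MYCi. It was 6.06 times higher in Low than in High, at 0.726 and 0.654 against 0.155 and 0.0730 FPKM (adjusted p = 0.346), and higher in EedKO, at 5.66 and 5.04 FPKM, than in Het, at 3.62 and 3.02 FPKM.

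**Figure D3:**
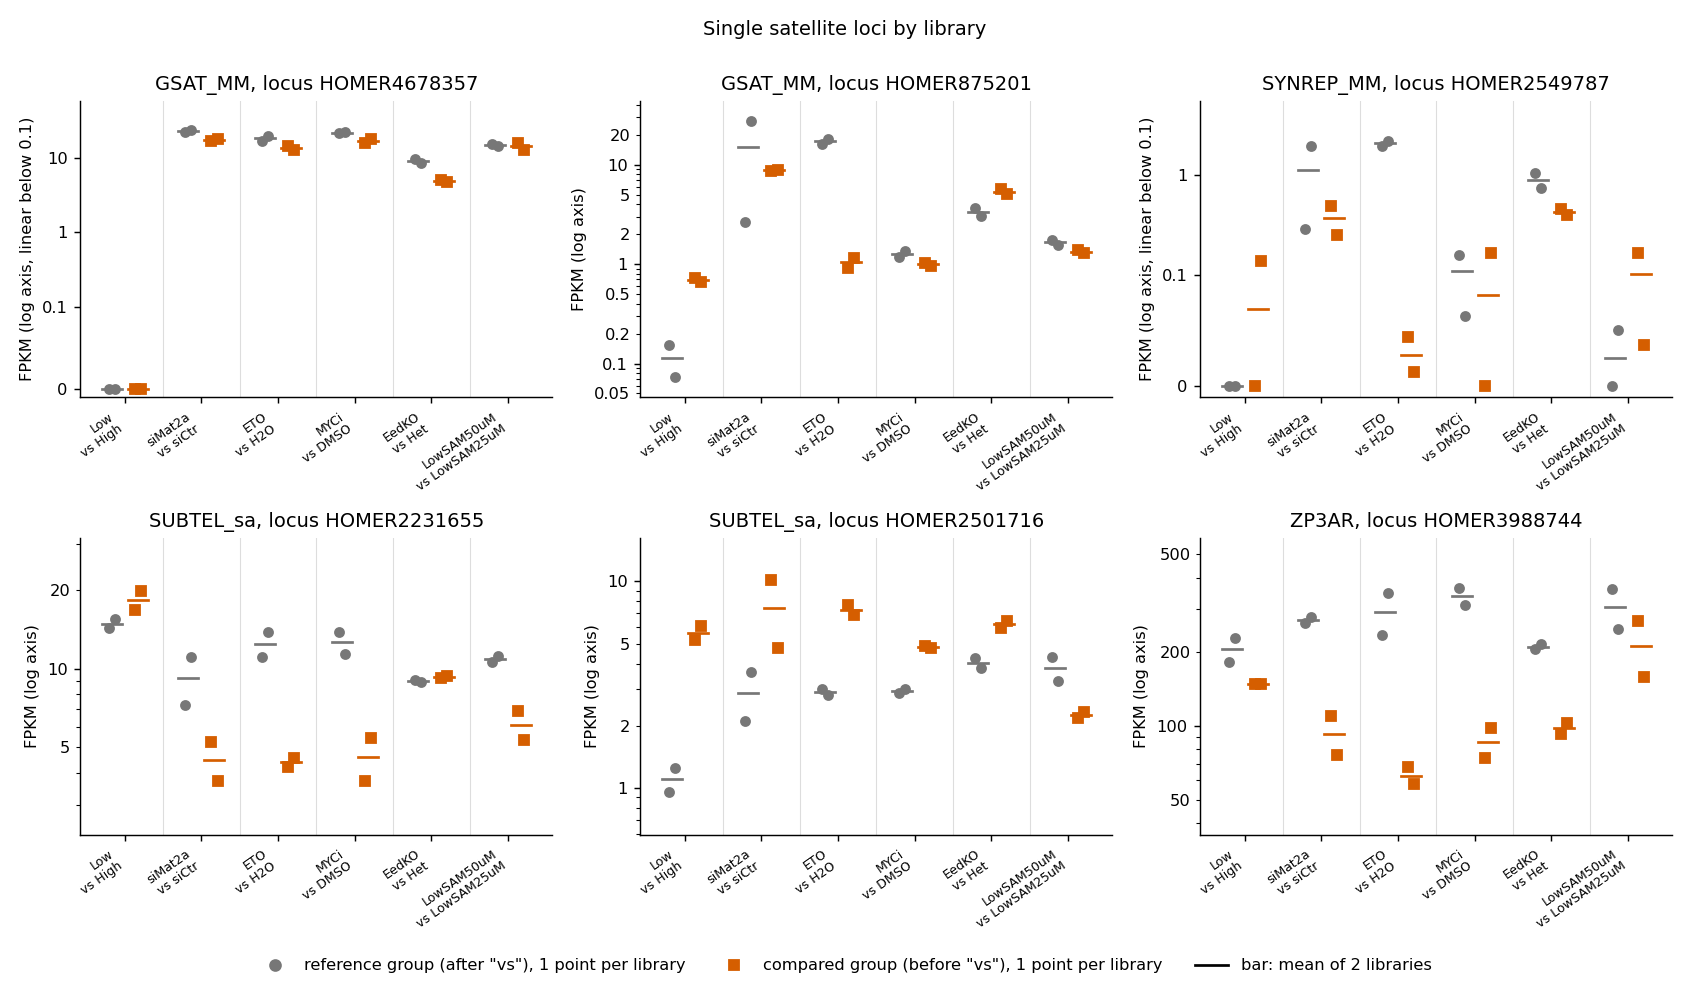
FPKM of 6 single satellite loci in each of the 24 libraries, for GSAT_MM loci 4678357 and 875201, SYNREP_MM locus 2549787, SUBTEL_sa loci 2231655 and 2501716 and ZP3AR locus 3988744. Each point is 1 library. GSAT_MM 875201 was between 16.2 and 27.4 FPKM in siCtr 2 and both H2O libraries and at most 8.88 FPKM in the others, while SUBTEL_sa 2231655 and 2501716 moved in opposite directions in ETO.

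Within 20 numbers of locus 2549795 lay 3 further GSAT_MM loci, interleaved with 3 loci of SYNREP_MM. Whether the order of the numbers follows the genome is not stated in the sources used here. They moved together in etomoxir. GSAT_MM locus 2549776 was at 1.68 and 2.09 FPKM in H2O and 0.0598 and 0.0338 FPKM in ETO. Locus 2549778 was at 1.81 and 2.16 against 0.0452 and 0 FPKM, and SYNREP_MM locus 2549777 at 1.32 and 0.880 against 0.154 and 0.0937 FPKM. SYNREP_MM locus 2549787 was 72.2 times lower in ETO, at 0.0439 and 0.0129 FPKM, than in H2O, at 1.92 and 2.19 FPKM (limma log2 change -2.27 with 0.5 added, adjusted p = 0.0621). In siCtr the same loci split by library, with 0.0695 and 3.85 FPKM for 2549776, 0 and 3.09 FPKM for 2549778, and 0.286 and 1.95 FPKM for 2549787, siCtr 2 being the high one each time.

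SYNREP_MM as a family hid 2 opposite courses in etomoxir. Its highest locus, 4258663, was at 1.01 and 0.418 FPKM in H2O and 3.02 and 2.89 FPKM in ETO, 4.13 times higher (adjusted p = 0.0786, limma). The other loci summed to 5.26 and 4.79 FPKM in H2O and 1.75 and 1.21 FPKM in ETO. The family mean, 0.0836 and 0.0695 against 0.0635 and 0.0547 FPKM, was not called with that locus (log2 change -0.32, adjusted p = 0.138) and was called lower without it (-1.39, adjusted p = 0.0359). In EedKO both were lower instead, locus 4258663 at 1.73 and 2.31 FPKM in Het and 0.679 and 1.30 FPKM in EedKO, and the other loci at 2.82 and 3.30 against 1.72 and 1.51 FPKM.

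In SUBTEL_sa 2 of the 3 highest loci parted ways. Locus 2231655 was at 11.1 and 13.8 FPKM in H2O and 4.21 and 4.53 FPKM in ETO, 2.85 times lower (adjusted p = 0.0635, limma), and at 13.8 and 11.4 FPKM in DMSO and 3.70 and 5.43 FPKM in MYCi, 2.76 times lower. Locus 2501716 was at 2.99 and 2.82 FPKM in H2O and 7.72 and 6.87 FPKM in ETO, 2.51 times higher (adjusted p = 0.0703). It was 1.62 times higher in MYCi, at 4.84 and 4.74 against 2.89 and 3.02 FPKM. In these 2 tables the groups did not overlap at either locus. The other of the 3, locus 583559, was at 3.53 and 2.70 FPKM in H2O and 3.57 and 3.96 FPKM in ETO, and at 2.96 and 3.23 FPKM in DMSO and 4.66 and 3.63 FPKM in MYCi. In Low both were higher, locus 2501716 5.12 times, at 5.18 and 6.07 against 0.951 and 1.25 FPKM in High (adjusted p = 0.187), and locus 2231655 at 16.8 and 19.8 against 14.3 and 15.4 FPKM. With 50 µM SAM both were lower than with 25 µM, at 6.87 and 5.31 against 10.6 and 11.2 FPKM for 2231655 and 2.19 and 2.32 against 4.28 and 3.30 FPKM for 2501716. In EedKO locus 2501716 was at 5.93 and 6.45 FPKM against 4.24 and 3.80 FPKM in Het, while 2231655 was nearly level, at 9.21 and 9.36 against 9.07 and 8.90 FPKM. Without its top locus the family was called higher in ETO (log2 change 0.82, adjusted p = 0.0331, where 3.25% of all families were) and in MYCi (0.46, adjusted p = 0.0230, where 35.5% were).

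ZP3AR was led by a pair of loci with neighbouring numbers. Locus 3988744 was at 234 and 348 FPKM in H2O and 67.7 and 57.6 FPKM in ETO, 4.65 times lower (adjusted p = 0.0621, limma). It was 3.93 times lower in MYCi, at 74.1 and 97.9 against 364 and 311 FPKM, and 2.15 times lower in EedKO, at 92.2 and 103 against 205 and 214 FPKM. In siMat2a it was at 110 and 76.2 FPKM against 261 and 276 FPKM in siCtr, and in Low at 148 in both libraries against 181 and 228 FPKM in High. It was thus lower in each of these 5 tables, without overlap. Locus 3988746 moved alike, from 148 and 209 to 41.4 and 32.5 FPKM in ETO. The median log2 change of the single ZP3AR loci was nearer 0, at -0.03 in ETO, -0.02 in MYCi and 0.02 in EedKO, against 0.10, 0.09 and 0.01 for all repeat loci. In Low it was -0.22 and in siMat2a -0.17, against -0.04 and 0.06 for all repeat loci. On the deposited scale, without its top locus, the family mean still fell in siMat2a (log2 change -0.43, adjusted p = 0.0429) and MYCi (-0.32, adjusted p = 0.0233), and was at -0.29 in ETO (adjusted p = 0.0618), with 2%, 8.44% and 3.04% of all families called lower.

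MMSAT4 moved across its loci rather than in a few. Of 1029 loci tested in ETO, 64 (6.22%) had a log2 change above 0, and the median was -0.90. In MYCi it was 67 of 1001 (6.69%, median -0.68), in siMat2a 125 of 1009 (12.4%, median -0.57), in EedKO 314 of 1056 (29.7%, median -0.23) and with 50 µM SAM 82 of 1005 (8.16%, median -0.30). In Low the balance was the other way, with 714 of 929 loci (76.9%) above 0 and a median of 0.20. The medians of all repeat loci lay between -0.04 and 0.10 in the 6 tables, and loci of this family share fragments, so their number adds no replication. Scaled to the median gene, 312 of the loci were above 0 in ETO (median -0.26), 433 in MYCi (-0.06), 537 in siMat2a (0.03), 266 in EedKO (-0.32), 677 with 50 µM SAM (0.07) and 679 in Low (0.16), so that the direction turned in siMat2a and with SAM. The medians of all repeat loci were then 0.63, 0.62, 0.56, -0.06, 0.34 and -0.07. On the same scale the change of the family mean was -0.35 in ETO but 0.01 in siMat2a and -0.05 in MYCi. Its highest locus, 1221366, was at 147 and 183 FPKM in H2O and 67.5 and 74.7 FPKM in ETO, and hardly differed between Het, at 31.5 and 28.7 FPKM, and EedKO, at 30.5 and 24.2 FPKM. Locus 3289224, by contrast, was 2.20 times lower in EedKO, at 66.6 and 54.3 against 134 and 131 FPKM (adjusted p = 0.0791, limma).

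IMPB_01, the most numerous family, had loci spread around 0. Its median single-locus change was 0.28 in MYCi, 0.20 in ETO, 0.13 in siMat2a, 0.08 in EedKO and -0.01 in Low, against medians of all repeat loci of 0.09, 0.10, 0.06, 0.01 and -0.04. Its family mean was at 0.104 and 0.102 FPKM in H2O and 0.116 and 0.122 FPKM in ETO, and at 0.0852 and 0.0843 in Het and 0.0969 and 0.0934 in EedKO, without overlap and without a call on the deposited scale. The locus with the second highest level, 3816527, stood apart from the family. It was at 13.5 and 11.4 FPKM in Het and 48.0 and 36.8 FPKM in EedKO, 3.41 times higher (log2 change 1.72, adjusted p = 0.0791, limma), and at 31.3 and 40.2 FPKM in siCtr and 14.2 and 8.09 FPKM in siMat2a (adjusted p = 0.0964).

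**Figure D4:**
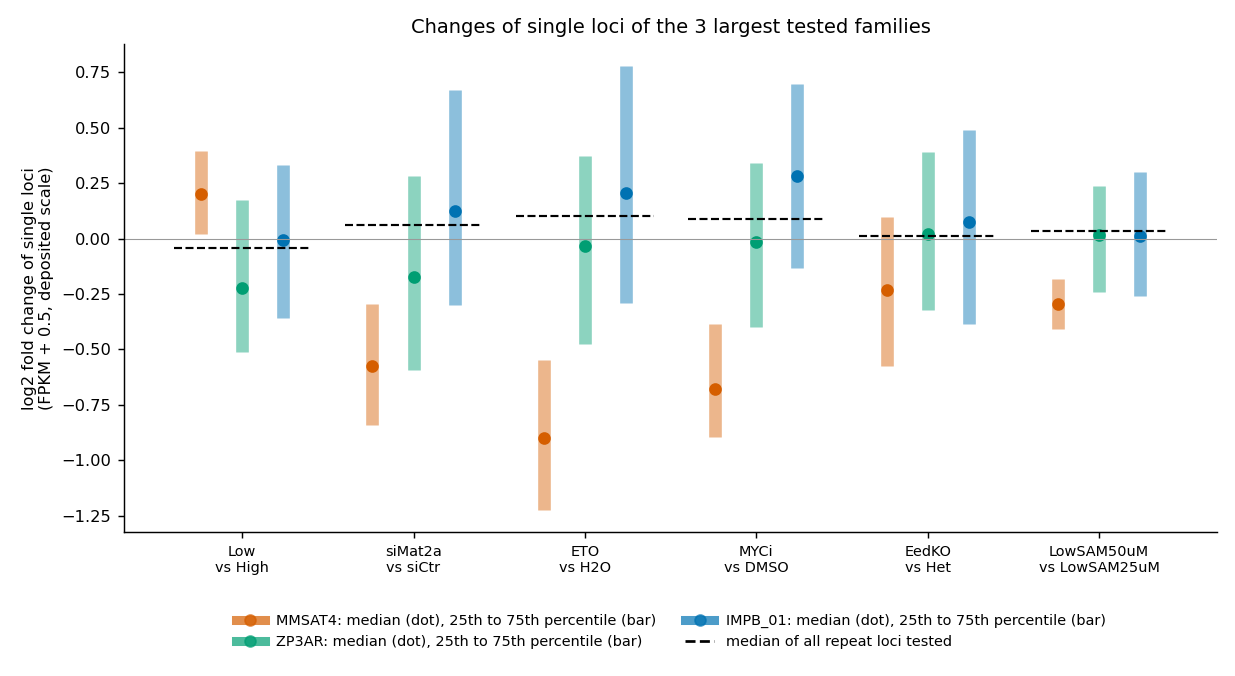
Median (point) and interquartile range (bar) of the single-locus log2 changes of MMSAT4, ZP3AR and IMPB_01 in the 6 comparisons, on the deposited scale, with the median of all repeat loci of the table as a dashed line. MMSAT4 medians ran from -0.90 in ETO to 0.20 in Low, whereas ZP3AR medians stayed between -0.22 and 0.02. Loci of a family share fragments and are not replicates.

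Because the tests at the level of loci depend on the scale, they were also made relative to the median gene. In ETO 299 of 3000 satellite loci were then called higher and 52 lower, where 10.9% and 0.669% of the 696528 repeat loci of all classes were. In MYCi 307 of 2984 were called higher and 6 lower, where 12% and 0.405% of 701417 were. In siMat2a, whose gene shift was of like size, and with 50 µM SAM no satellite locus was called by limma on that scale, with 509 of 2569 and 95 of 2823 at an unadjusted p under 0.05. Of the 588417 and 668959 repeat loci of all classes 0 were called either, so this was not particular to satellites. In ETO the lower calls included 5 of 9 GSAT_MM loci, none of which was called higher, and 34 of 1029 MMSAT4 loci, of which 6 were higher. IMPB_01 made up 248 of the higher calls and ZP3AR 43.

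The genes that pack or copy pericentromeric and centromeric chromatin were counted from a list of 66, of which 63 were tested. The list names histone methyltransferases and demethylases, HP1 proteins, DNA methylation factors, chromosomal passenger and centromere proteins. Genes of other kinds are on it too, among them Mki67, Top2a, Npm1, Ncl, Dicer1, Pax3 and Pax9. The study reported that cell cycle genes were lower in Low than in High. The part of the cell cycle in these counts was not tested. In ETO 1 was called higher and 52 lower by limma (13.9% and 51.3% of all genes), in MYCi 0 and 60, with 0 higher at an unadjusted p under 0.05 (7.89% and 57.8%), and in siMat2a 2 and 37 (13.1% and 36.8%). In EedKO 5 were higher and 20 lower (24.2% and 12.1%), in Low 1 and 8 (14% and 6.45%), and with 50 µM SAM none, also at an unadjusted p under 0.05 (0.389% and 0.493%). Eed, the deleted gene, is on the list and among those called lower in EedKO. The list's median log2 change was -1.38, -1.15, -1.07, -0.22, -0.09 and -0.47 in that order, beside -0.66, -0.65, -0.63, 0.11, 0.04 and -0.40 for all genes. Several of these counts turned on single libraries, in fits for which the share over all genes was not counted. The list calls in both directions, 39 in siMat2a, were 1 without siCtr 1 or siCtr 2 and 60 without siMat2a 1. They were 17 without ETO 1 and 13 without ETO 2 in place of 53, 2 without Low 1 or Low 2 in place of 9, and 11 without Het 1 and 10 without Het 2 in place of 25. Scaled to the median gene, it was 8 higher and 45 lower in ETO (30.9% and 31.2% of all genes), 5 and 45 in MYCi (25.4% and 28.4%), 5 and 29 in siMat2a (23% and 19.8%), 5 and 38 in EedKO (25.3% and 22.5%) and 7 and 28 in Low (19.4% and 17%).

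Named members of the list gave these values. Aurkb, the kinase of the chromosomal passenger complex, fell in Low, from 19.4 and 22.1 to 11.9 and 9.33 FPKM (log2 change -0.97, limma adjusted p = 0.00129), together with its partner Incenp (-0.67), the topoisomerase Top2a (-0.68) and the DNA methylation cofactor Dnmt3l (-0.68). In ETO the 4 largest were Hmga1, an architectural protein that binds AT-rich DNA (-2.60), Top2a (-2.49), Uhrf1, which brings Dnmt1 to replicated DNA (-2.47), and Aurkb (-2.28). In MYCi they were the DNA methyltransferase Dnmt3b (-1.78), Uhrf1 (-1.74), the HP1 gene Cbx1 (-1.70) and Top2a (-1.64). In siMat2a they were Hmga1, from 175 and 176 to 45.7 and 27.2 FPKM (-2.31), the HP1 gene Cbx3 (-1.85), the centromere protein gene Oip5 (-1.74) and the chromatin assembly factor gene Chaf1b (-1.74). In EedKO the Polycomb gene Scml2 rose from 2.76 and 2.58 to 17.8 and 16.0 FPKM (2.61) and the transcription factor gene Pax9 rose by 1.604, while Eed and Dnmt3l (-1.25) fell. All of these kept their direction relative to the median gene.

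Other repeat classes were measured in the same fits. The median family change of the 6 satellites was -0.42 in ETO, -0.31 in MYCi and -0.22 in siMat2a on the deposited scale, whereas that of LINE families was 0.18, 0.23 and 0.17 and that of LTR families 0.12, 0.15 and 0.18. Medians below 0 were not particular to satellites, being -0.38, -0.29 and -0.44 for the 10 Low_complexity families, -0.59, -0.43 and -0.32 for the 10 snRNA families and -0.07, -0.01 and -0.08 for Simple_repeat families. In Low it was 0.25 for satellites and -0.01 for LTR families. On the median-gene scale, the satellite median turned to 0.32 in ETO and 0.51 in siMat2a, still below the LINE medians of 0.92 and 0.86. MERVL-int, the internal part of an endogenous retrovirus active in totipotent 2-cell embryos, is given by its values only. Its changes were not tested against those of the satellites. MERVL-int was at 0.0420 and 0.0432 FPKM in High and 0.459 and 0.410 FPKM in Low. It was at 0.329 and 0.324 in siCtr and 1.96 and 1.35 in siMat2a, and at 0.598 and 0.601 in Het and 1.94 and 2.21 in EedKO. The LTR family MT2_Mm was higher in these tables too. It was at 0.0472 and 0.0503 FPKM in High and 0.178 and 0.157 in Low, and at 0.264 and 0.257 in siCtr and 0.966 and 0.690 in siMat2a. In Het it was at 0.394 in both libraries and in EedKO at 1.06 and 1.18. In ETO, where GSAT_MM fell, MERVL-int was at 0.336 and 0.353 FPKM against 0.333 and 0.341 FPKM in H2O. In MYCi it was at 0.348 and 0.363 FPKM against 0.343 in both DMSO libraries. By RT-qPCR, another assay than these family means, the study reported a significant rise of MERVL with either inhibitor. The reason for this difference was not tested.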

How the data were processed

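Total RNA depleted of rRNA was sequenced from 24 libraries. The authors trimmed reads with Trim Galore and cutadapt, mapped them to mm10 with TopHat2 2.1.1, removed duplicates with SAMtools 1.9, and counted fragments over Ensembl genes, NONCODE transcripts and HOMER 4.10 repeats with featureCounts, unstranded and with fractions for multiple and overlapping matches. The deposited values are FPKM, computed by the authors with edgeR within each of 6 tables of 4 libraries.

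From these, family means over all loci (zeros kept) were tested with limma 3.58.1 (R 4.3.3, intensity trend) on log2(FPKM + 0.01), over families of at least 10 loci and a mean of 0.01 FPKM. Loci were tested on log2(FPKM + 0.5) where at least 2 libraries reached 0.5, and genes on log2(FPKM + 0.1) where at least 2 reached 0.1, so fold changes understate those of low features. P-values were adjusted by the Benjamini-Hochberg method over all families, loci or genes, with a threshold of 0.05. Tests were two-sided and checked on simulated data. Folds without a log2 value are ratios of group means.

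The rule named every family, each library for called families and GSAT_MM, the 3 loci with the largest rise and fall past the threshold, and the 4 list genes with the largest change past it in each comparison. No locus passed, so the loci named were chosen after their values were seen, by mean FPKM over all libraries or by a number near such a locus. Members, lists and markers were chosen with earlier results of these data known. Alternatives were other scalings, pseudocounts, filters, no trend, no top locus, the median over detected loci, a replicate block, 1 fit over all tables and leaving out each library. Gene symbols matched 55144 of 55385 Ensembl IDs. No genome sequence was used here, so satellite sequences and positions are not given.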

Additional observations from a re-analysis of the deposited data

Results flagged for a closer look

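In 9 cases the change of a satellite family differed between 2 comparisons by limma's test of that difference, in 1 fit over all 24 libraries. Between Low against High and ETO against H2O, the differences were 2.47 for GSAT_MM, 1.37 for MMSAT4, 0.75 for SUBTEL_sa and -0.19 for IMPB_01 on the log2 scale. Between Low against High and MYCi against DMSO they were 1.04 for MMSAT4, 0.97 for SUBTEL_sa and -0.31 for IMPB_01. Between siMat2a against siCtr and EedKO against Het they were 1.29 for SYNREP_MM and -0.42 for ZP3AR. Relative to the median gene, 5 of the 9 passed the same threshold: GSAT_MM (1.65), MMSAT4 (0.53) and IMPB_01 (-0.95) between Low and ETO, IMPB_01 (-1.05) between Low and MYCi, and SYNREP_MM (2.04) between siMat2a and EedKO. Relative to the median repeat family, 8 of the 9 passed it, and IMPB_01 between Low and ETO did not (-0.10, adjusted p = 0.194). The sorted libraries and the cultured ones belonged to tables normalized separately, and GSAT_MM locus 4678357, at 0 in all 4 sorted libraries and between 4.74 and 23.3 FPKM elsewhere, entered the family means of the other tables only. Its part in the GSAT_MM difference was not tested.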

How the results depend on the processing

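Of the counts of calls, 136 alternatives stayed within 1.5 times and 47 moved, and of the single families and genes 572 kept direction and call, 82 lost the call, 18 gained it and 54 changed sign. With 4 libraries per table, adjusted p-values near 0.05 are decided by single libraries and by the scale, and for features near 0 FPKM depth is the limit. Except for scalings, the counts of calls below come without a share over all families, loci or genes. They thus do not tell whether a gain or loss of calls is particular to satellites or to the list.

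Satellite families called were 1 in Low scaled to ERCC. In siMat2a they were 3 scaled to the median gene, 0 scaled to the median repeat family, 0 with no filter on low families, 3 by the median over detected loci and 3 with all tables in 1 fit. In ETO they were 0 scaled to the median repeat family, 1 with no filter and 0 by the median over detected loci. In MYCi they were 1 by the median over detected loci and 3 with all tables in 1 fit, and in EedKO 1 scaled to the median gene, to the median repeat family, by the median over detected loci and with all tables in 1 fit. Relative to the median repeat family, 2 of all 1447 families were called in siMat2a and 0 of all 1448 in ETO. Satellite loci called relative to the median gene were 351 in ETO and 313 in MYCi. List genes called relative to the median gene were 35 in Low and 43 in EedKO, and with no filter on low genes 0 in Low and in siMat2a.

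The labels number the libraries 1 and 2 in each group without saying what a number shares. The correlation of same-numbered deviations was between -0.08 and 0.28 over families and between -0.10 and 0.30 over genes, so the numbers were not taken as a pairing. With the replicate number as a block, families called were 0 in siMat2a, 1 in ETO and 0 in MYCi, and list genes called were 2 in Low, 22 in siMat2a and 55 with 50 µM SAM. The block changed no other count of calls by over 1.5 times.

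Leaving out 1 library at a time, families called ranged from 0 to 2 in siMat2a, from 0 to 3 in ETO (0 without ETO 1 or ETO 2) and were 0 in MYCi without any of its 4 libraries. Loci called in siMat2a ranged from 0 to 45 (45 higher without siMat2a 1). List genes called ranged from 2 to 9 in Low (2 without Low 1 or Low 2), from 1 to 60 in siMat2a (1 without siCtr 1 or siCtr 2, 60 without siMat2a 1), from 13 to 61 in ETO (17 without ETO 1 and 13 without ETO 2) and from 10 to 22 in EedKO (11 without Het 1 and 10 without Het 2). Log2 changes whose sign turned on a library were GSAT_MM in EedKO (-0.21 to 0.14) and siMat2a (-1.24 to 0.26), IMPB_01 in Low (-0.0153 to 0.0105) and with 50 µM SAM (-0.0456 to 0.0515), SUBTEL_sa in siMat2a (-0.28 to 0.36), and SYNREP_MM in siMat2a (-0.14 to 1.14) and with 50 µM SAM (-0.0185 to 0.27).

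On the median-gene scale, the sign turned for GSAT_MM in siMat2a (0.25), MYCi (0.56) and 50 µM SAM (0.28), MMSAT4 in siMat2a (0.0106) and 50 µM SAM (0.0871), ZP3AR in siMat2a (0.14), ETO (0.27), MYCi (0.23) and 50 µM SAM (0.27), SUBTEL_sa in ETO (0.56), MYCi (0.31) and EedKO (-0.00173), and SYNREP_MM in ETO (0.37). Of the differences between comparisons it turned for SUBTEL_sa (-0.0777), SYNREP_MM (-0.13) and ZP3AR (-0.58) between Low and ETO, ZP3AR (-0.54) between Low and MYCi, and GSAT_MM (0.39), IMPB_01 (0.77), MMSAT4 (0.49), SUBTEL_sa (0.78) and ZP3AR (0.43) between siMat2a and EedKO. Relative to the median repeat family it turned for IMPB_01 in Low (0.000141) and 50 µM SAM (-0.00512) and SUBTEL_sa in siMat2a (-0.0559), and relative to ERCC for IMPB_01 in Low (0.0319).

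Without the top locus, the sign turned for IMPB_01 in Low (0.000662), SUBTEL_sa in ETO (0.82) and MYCi (0.46), GSAT_MM in MYCi (0.23) and EedKO (0.42), and SYNREP_MM with 50 µM SAM (-0.0918). By the median over detected loci it turned for SUBTEL_sa in Low (-1.18), ETO (1.21), MYCi (0.95) and EedKO (-0.60), GSAT_MM in siMat2a (0.93), MYCi (0.81) and 50 µM SAM (0.18), SYNREP_MM in siMat2a (-0.12), and ZP3AR in ETO (0.20), EedKO (0.42) and 50 µM SAM (0.0787). The cause was not tested beyond what each alternative leaves out.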

Other observations

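The families too small or too low for a test gave these values. (CATTC)n was at 0 in both EedKO libraries against 0.115 and 0.0260 FPKM in Het, at 0.0512 and 0.0689 FPKM in MYCi against 0 in both DMSO libraries, and at 0 and 0.0126 FPKM with 50 µM SAM against 0.0979 and 0.0947 FPKM with 25 µM. CENSAT_MC was at 0.0547 and 0.0194 FPKM in ETO and listed at 0 in both H2O libraries, all of it from 1 locus. MurSAT1 had 2308 of its 5741 loci above 0 in the siCtr and siMat2a table, at 0.00417 to 0.00697 FPKM per locus, and 1258 in the SAM table, at 0.00296 to 0.00432 FPKM. In the other 4 tables it had 82 to 546 loci above 0 and at most 0.00115 FPKM. The cause of this difference between tables was not tested.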
